A study of Mus musculus with 4 samples.

Results

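Basophils and mast cells are granulocytes that carry the high-affinity receptor for immunoglobulin E on their surface and store histamine and proteases in their granules. Crosslinking of the receptor releases the granules and starts transcription of interleukin-4 (IL-4) and interleukin-13 (IL-13), the cytokines that define type 2 immunity. In the lung these cytokines act on macrophages and epithelium through receptors that share the IL-4 receptor alpha chain and signal through the transcription factor STAT6. The data described here are the transcripts of 9 genes of this programme, taken by symbol from a table of 54532 genes: *Hdc*, *Mcpt8*, *Cpa3*, *Fcer1a*, *Ms4a2*, *Gata2*, *Cd200r3*, *Il4* and *Il13*. All 9 symbols were found, each as 1 row.

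The libraries were made from alveolar macrophages (AMs), the macrophages of the lung airspace, of female wild-type mice. The Control group (2 libraries) came from mice that received no tumor cells, and the Tumor group (2 libraries) from mice that had carried a 4T1 tumor for 2 weeks. 4T1 is an established mouse mammary carcinoma line, injected by the authors into the mammary fat pad of BALB/c mice, and wild-type mice of the study were 8 to 10 weeks old. The study speaks of isolated AMs that were used both for staining and for RNA sequencing, and gives the stained ones as CD45+ CD11b- CD11c+ SiglecF+, while its sequencing methods say only that AMs were purified. Whether a library is 1 mouse or a pool is not stated, so the p-values below measure only the spread between these libraries, which may be technical. The study used the comparison to ask how AMs differ in the pre-metastatic lung.

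Total counts were between 16167147 and 19205737 per library. A value of 3 counts or fewer was taken as the floor, which is 0.153 to 0.190 CPM (the usual depth-scaled unit, here counts relative to the TMM-scaled library size). Intervals, and the floor for genes at 0 counts, cover counting error only. The labelled cell type was visible in all libraries: the summed level of 14 AM markers was 16680 and 16854 CPM in the Control and 12790 and 12982 CPM in the Tumor libraries. The quasi-likelihood test of edgeR was applied to 14256 genes, of which 53.8% had an adjusted p under 0.05 (29.0% higher and 24.8% lower in Tumor), and in 39.3% both Tumor libraries lay above both Control libraries. Of the calls 53.9% were higher, a share that became 62.6% with total counts as library sizes and 91.6% with scaling on the AM markers. With scaling over all genes, 13 of the 14 AM markers were called lower in Tumor and 1 higher, with a median log2 change of -0.46. In these bulk libraries more cells of a type and more RNA per cell cannot be told apart.

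All 9 genes were low in Control, with at most 2.03 CPM for *Hdc* and at most 5 counts for the other 8, and were higher in Tumor, and for all 9 both Tumor libraries lay above both Control libraries. The count of 9 called higher is to be read beside the 29.0% of all genes called higher and beside the filter on low counts. Of the 9 genes, 8 passed that filter through the Tumor libraries alone, with at most 5 counts in a Control library, and all 545 tested genes that were at the floor in both Control libraries were called higher. For 6 of the 9 genes both Control libraries were at the floor, and the change is given as a lower bound, computed from the lower Tumor library against the higher of the Control floors. The bound sets Control at 3 counts and leaves out the counting error of the Tumor library. For *Gata2*, with 3 counts in each Control library, it is therefore an observed ratio. The plot of CPM by library shows the separation of the groups for each gene.

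**Figure D1:**
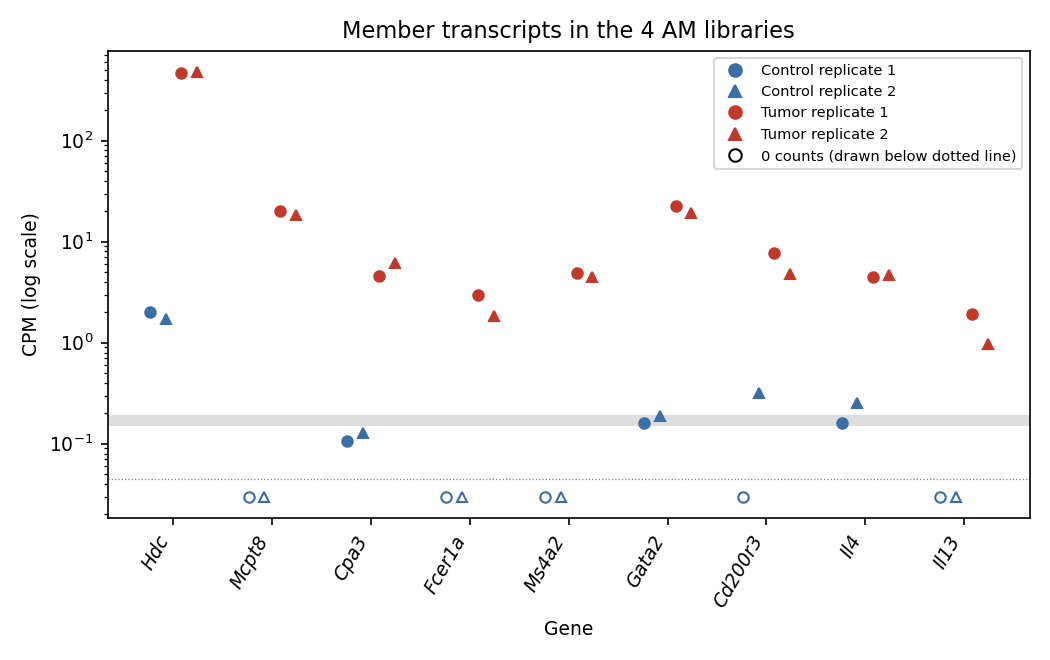
CPM of each gene (log scale) in the 2 Control (blue) and 2 Tumor (red) libraries, with open symbols below the dotted line for 0 counts and the range of the floor of 3 counts shaded in grey. *Mcpt8*, *Fcer1a*, *Ms4a2* and *Il13* had 0 counts in both Control libraries, and *Hdc* reached the highest level, 468 and 479 CPM, in Tumor.

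The first group comprises the granule genes. *Hdc* (ENSMUSG00000027360, minus strand of chromosome 2, 126593667 to 126619299, GRCm38 coordinates) encodes histidine decarboxylase, the enzyme that makes histamine. The Control libraries held 38 and 27 counts, or 2.03 and 1.71 CPM, and the Tumor libraries 8101 and 9401 counts, or 468 and 479 CPM. The Tumor libraries were thus close to each other and far above both Control libraries. The mean rose from 1.87 ± 0.224 to 473 ± 7.996 CPM (SD, n = 2 each), a log2 fold change of 7.97 ± 0.0653 (SE) with an edgeR adjusted p of 1.78e-34. *Hdc* was the single gene of the 9 with more than 5 counts in a Control library, and it held 87.1% and 88.8% of the summed CPM of the 9 genes in the Tumor libraries. Besides basophils and mast cells, immature myeloid cells and neutrophils are known to transcribe *Hdc*.

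*Mcpt8* (ENSMUSG00000022157, minus strand of chromosome 14, 56082166 to 56085273) encodes a granule serine protease that in mice is characteristic of basophils. No read was counted in either Control library, against 346 and 360 counts in the Tumor libraries, or 20.0 and 18.3 CPM. The level in Tumor was 19.2 ± 1.15 CPM (SD, n = 2), at least 96.5-fold higher than in Control (edgeR adjusted p 3.68e-18). *Cpa3* (ENSMUSG00000001865, minus strand of chromosome 3, 20215620 to 20242181) encodes carboxypeptidase A3, a granule enzyme of mast cells that basophils also make. It had 2 counts in each Control library and 80 and 122 in the Tumor libraries, or 4.62 and 6.22 CPM. The rise was at least 24.3-fold (edgeR adjusted p 9.03e-12). The only genes of the table that overlap *Mcpt8* and *Cpa3* are the microRNA genes *Mir6949* and *Mir7007*, with 0 counts in all libraries, and none overlaps the other 7 genes.

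The second group comprises subunits of the immunoglobulin E receptor. *Fcer1a* (ENSMUSG00000005339, minus strand of chromosome 1, 173221284 to 173227214) encodes the alpha chain, which binds immunoglobulin E. Against 0 counts in both Control libraries, the Tumor libraries had 51 and 36, or 2.95 and 1.83 CPM. The rise was at least 9.65-fold (edgeR adjusted p 2.70e-08), a bound set by Tumor replicate 2, and Tumor replicate 1 alone gave 15.5-fold. *Ms4a2* (ENSMUSG00000024680, minus strand of chromosome 19, 11615523 to 11623719) encodes the beta chain, which amplifies the signal. Again no read was counted in Control, against 85 and 87 in Tumor, or 4.91 and 4.43 CPM, a rise of at least 23.3-fold (edgeR adjusted p 1.02e-11). Both chains were therefore counted in both Tumor libraries and in neither Control library.

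The third subunit, the gamma chain encoded by *Fcer1g*, is shared with Fc receptors of macrophages and was abundant in every library, with 100.1 and 106 CPM in Control and 123 and 130 CPM in Tumor. Its log2 fold change of 0.29 ± 0.0449 (SE) passed the test (edgeR adjusted p 2.73e-06). Scaled to gene length, the *Fcer1g* level in the Tumor libraries was 47.6 and 80.8 times that of *Fcer1a* and 80.6 and 94.2 times that of *Ms4a2*.

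*Cd200r3* (ENSMUSG00000036172, plus strand of chromosome 16, 44943678 to 44981380) encodes an activating receptor of the CD200 receptor family found on basophils and mast cells. Counts were 0 and 5 in Control and 133 and 95 in Tumor, or 7.68 and 4.84 CPM. On the log2 scale it rose by 5.36 ± 0.470 (SE; edgeR adjusted p 1.11e-10). This size rests on Control replicate 2, since the value was 4.26 without Control replicate 1, and without Control replicate 2, where the remaining Control library had 0 counts, the rise was at least 30.3-fold. The gene lies among related CD200 receptor genes, and how reads with several matches were counted is not given in the sources used here.

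*Gata2* (ENSMUSG00000015053, plus strand of chromosome 6, 88193891 to 88207032) encodes a zinc finger transcription factor required for basophils, mast cells and their progenitors, and it is also made by endothelium. It had 3 counts in each Control library, that is, at the floor, and 395 and 380 in the Tumor libraries, or 22.8 and 19.4 CPM. The lower Tumor library stood 102-fold above the higher Control floor (edgeR adjusted p 1.55e-18). This is an observed ratio, since both Control libraries held 3 counts. Of the endothelial markers, *Cdh5* was at 1.76 and 0.760 CPM in Control and 1.85 and 1.38 CPM in Tumor (edgeR adjusted p 0.524), and *Kdr* was at 1.07 and 0.760 against 1.33 and 1.07 CPM (adjusted p 0.478). *Pecam1*, an adhesion molecule gene that leukocytes and platelets also express, rose from 2.24 and 2.03 to 20.2 and 17.5 CPM (edgeR adjusted p 3.05e-15). *Cldn5* rose by 1.68 ± 0.578 (SE) on the log2 scale (edgeR adjusted p 0.0155), a call lost without Control replicate 1 (1.69), Control replicate 2 (1.66) or Tumor replicate 1 (0.92), and *Vwf* fell by 0.44 ± 0.0467 and was at 0.0027 with scaling on the AM markers. The part of endothelium in the level of *Gata2* was not tested.

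GATA factors bind the letters GATAA, and the promoters of genes that moved together with *Gata2* were searched for them. RefSeq windows of 300 bases (250 before and 50 after a transcript's start, build GRCm38.p6, from the C57BL/6J reference and not from the BALB/c strain) were matched for all 9 genes, in 11 windows since *Gata2* and *Il4* have 2 starts each. GATAA on either strand was found for 6 of the 9 genes (*Ms4a2*, *Cd200r3*, *Cpa3*, *Fcer1a*, *Il13* and *Il4*), in 6 of 11 windows, and in 25.4% of all 32851 promoter windows. The longer AGATAA, which is contained in these counts, was found in 5 of 11 windows and in 11.2% of all windows. No match was found in the windows of *Hdc*, *Mcpt8* and *Gata2* itself. Matches are descriptions of these letters, and binding was not measured. The windows printed here are those of both receptor chains and of *Cpa3* and *Il13*, which hold matches, and that of *Hdc*, the most abundant of the 9 transcripts, which holds none. They run 5′ to 3′ along the gene, in lower case, with GATAA or its reverse complement in capitals. All lie on the minus strand, at chr19:11623670-11623969 for *Ms4a2*, chr1:173227180-173227479 for *Fcer1a*, chr3:20242132-20242431 for *Cpa3*, chr11:53634653-53634952 for *Il13* and chr2:126618629-126618928 for *Hdc*.
Ms4a2: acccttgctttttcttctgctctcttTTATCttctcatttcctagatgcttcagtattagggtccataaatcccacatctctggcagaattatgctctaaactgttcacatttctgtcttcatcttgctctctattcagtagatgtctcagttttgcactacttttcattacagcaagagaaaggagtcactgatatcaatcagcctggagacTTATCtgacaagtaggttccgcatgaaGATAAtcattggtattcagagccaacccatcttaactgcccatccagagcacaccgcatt
Fcer1a: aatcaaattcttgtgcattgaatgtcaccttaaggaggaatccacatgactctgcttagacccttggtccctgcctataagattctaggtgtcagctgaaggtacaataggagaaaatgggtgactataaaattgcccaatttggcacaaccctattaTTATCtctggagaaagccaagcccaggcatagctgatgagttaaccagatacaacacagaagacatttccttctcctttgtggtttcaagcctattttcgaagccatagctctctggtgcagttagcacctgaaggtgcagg
Cpa3: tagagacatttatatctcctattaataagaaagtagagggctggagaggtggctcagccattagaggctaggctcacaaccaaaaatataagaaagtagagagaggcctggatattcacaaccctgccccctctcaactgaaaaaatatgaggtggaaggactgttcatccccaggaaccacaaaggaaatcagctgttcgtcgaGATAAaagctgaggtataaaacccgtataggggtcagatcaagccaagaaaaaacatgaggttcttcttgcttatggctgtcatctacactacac
Il13: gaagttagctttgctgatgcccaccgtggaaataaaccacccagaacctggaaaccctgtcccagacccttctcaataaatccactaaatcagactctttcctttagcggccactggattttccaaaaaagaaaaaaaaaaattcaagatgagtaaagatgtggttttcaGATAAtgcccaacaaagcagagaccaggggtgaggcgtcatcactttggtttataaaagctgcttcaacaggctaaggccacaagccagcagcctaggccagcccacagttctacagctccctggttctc
Hdc: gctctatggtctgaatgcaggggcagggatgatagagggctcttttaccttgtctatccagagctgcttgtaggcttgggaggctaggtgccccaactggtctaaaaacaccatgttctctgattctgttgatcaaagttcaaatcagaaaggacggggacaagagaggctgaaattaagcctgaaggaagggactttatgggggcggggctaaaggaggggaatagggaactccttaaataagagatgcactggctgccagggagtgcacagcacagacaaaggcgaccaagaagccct

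In *Ms4a2* the 3 matches began 224, 37 and 10 bases before the start of the transcript. The match in *Cpa3* began 45 bases before the start, in *Il13* 80 bases and in *Fcer1a* 92 bases before it. The core letters to which the aryl hydrocarbon receptor (AHR), the subject of the study, binds, GCGTG on either strand, were found in both windows of *Gata2*, in no window of the other 8 genes, and in 32.4% of all windows. A palindrome of the type to which STAT6 binds was found in 1 window of *Il4* and in 6.95% of all windows.

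The last group comprises the cytokines. *Il4* (ENSMUSG00000000869) encodes IL-4 and lies on the minus strand of chromosome 11, 53602982 to 53618669. Counts were 3 and 4 in Control and 78 and 92 in Tumor, or 4.50 and 4.69 CPM. The rise was 21.9-fold, or 4.46 ± 0.390 (SE) on the log2 scale (edgeR adjusted p 1.04e-10), with 4.13 without Control replicate 1. Without Control replicate 2, where the remaining Control library is at the floor, the value was 4.77 on the log2 scale. *Il13* (ENSMUSG00000020383, minus strand, 53631324 to 53634702) lies 12.7 kb from *Il4* on the same chromosome. Control libraries had 0 counts, and the Tumor libraries had 33 and 19, or 1.91 and 0.968 CPM, the fewest counts of the 9 genes in Tumor. The rise was at least 5.09-fold (edgeR adjusted p 2.23e-06), a bound set by Tumor replicate 2, since that from Tumor replicate 1 alone was 10.03-fold. Neither bound covers the counting error of these low Tumor counts. *Il5*, the next type 2 cytokine gene of this locus, lies 86.1 kb beyond *Il13* and was counted once in Tumor replicate 1 and in no other library.

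Levels of different genes were compared after division by gene length, as CPM per kilobase. In the Tumor libraries the order was *Hdc* (74.1 ± 1.25), *Mcpt8* (19.2 ± 1.16), *Gata2* (3.91 ± 0.451), *Il4* (3.75 ± 0.106), *Cpa3* (3.57 ± 0.745), *Fcer1a* (2.39 ± 0.787), *Ms4a2* (1.66 ± 0.119), *Il13* (1.19 ± 0.550) and *Cd200r3* (1.05 ± 0.335; mean ± SD, n = 2). *Hdc* stood 3.86-fold above *Mcpt8*, and *Mcpt8* 4.92-fold above *Gata2*. The Tumor values of *Gata2* and *Il4*, of *Il4* and *Cpa3*, of *Ms4a2* and *Il13*, and of *Il13* and *Cd200r3* overlapped, so that the order within these pairs is not resolved. *Il4* was 2.32 and 4.76 times as high as *Il13* in the 2 Tumor libraries.

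**Figure D2:**
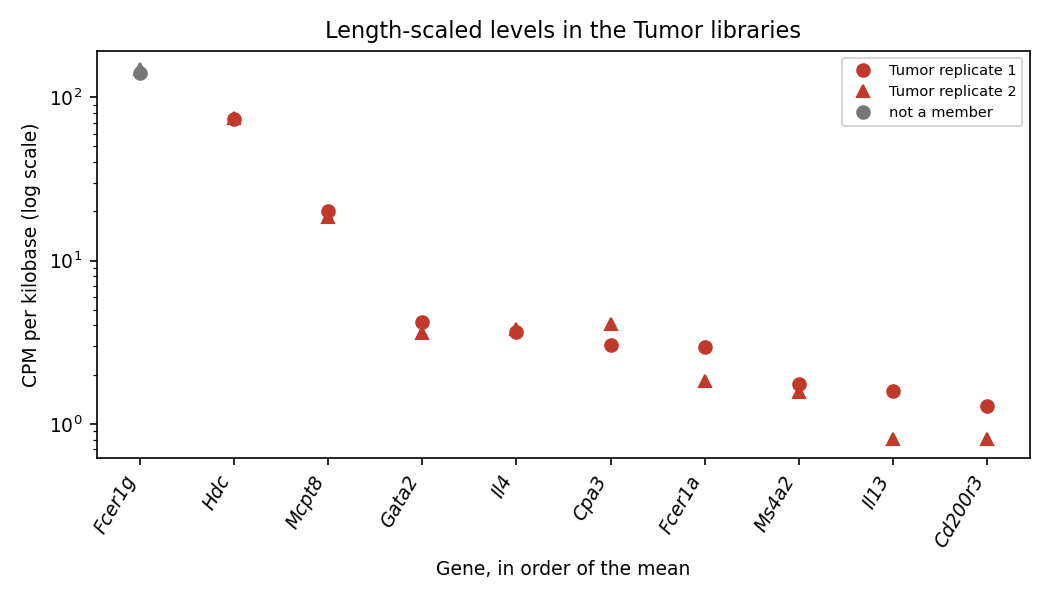
CPM per kilobase of gene length (log scale) in the 2 Tumor libraries, for the 9 genes in red and the shared receptor chain gene *Fcer1g* in grey, ordered by the mean. *Hdc* and *Mcpt8* stand apart from the other 7 genes, which lie between 0.804 and 4.23.

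The 2 Tumor libraries were then set against each other, with exact 95% intervals of the ratio of their CPM values. For 5 of the 9 genes the interval excluded 1, as it did for 17.0% of the 14256 genes tested. *Il13* was 1.97 times as high in Tumor replicate 1 as in Tumor replicate 2 (1.09 to 3.66), *Fcer1a* 1.61 times (1.03 to 2.53), *Cd200r3* 1.59 times (1.21 to 2.09) and *Gata2* 1.18 times (1.02 to 1.36), whereas *Cpa3* was 0.743 times as high (0.553 to 0.993). The basophil protease gene *Prss34*, which is not among the 9, was 1.43 times as high (1.22 to 1.69). The other genes set beside them had intervals that included 1, with ratios of 1.10 for *Gata1*, 1.05 for *Kit*, 0.987 for *Il1rl1*, 1.001 for the eosinophil gene *Prg2* and 1.01 for the neutrophil gene *Ngp*. *Hdc* at 0.976 (0.948 to 1.01), *Il4* at 0.961 (0.701 to 1.31), *Mcpt8* at 1.09 (0.937 to 1.27) and *Ms4a2* at 1.11 (0.811 to 1.51) had intervals that included 1. The intervals compare these 2 libraries and not conditions, and the largest of these ratios, 1.97 for *Il13*, stands beside a bound of at least 5.09-fold between Tumor and Control for that gene.

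**Figure D3:**
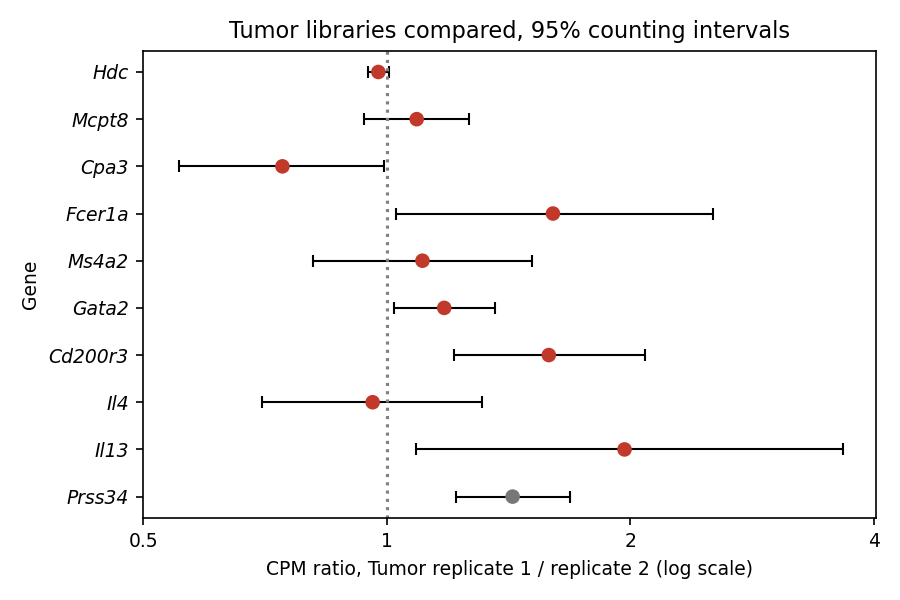
Ratio of CPM in Tumor replicate 1 to Tumor replicate 2 (log scale) with exact 95% intervals for counting error, for the 9 genes (red) and *Prss34* (grey). *Il13*, *Fcer1a*, *Cd200r3*, *Gata2* and *Prss34* lie above 1 and *Cpa3* lies below it, each with an interval that excludes 1.

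Other genes of the same cells were read from lists. Of 14 granule and mediator genes, 4 were higher, 1 was lower, 1 was not called and 8 had too few counts to be tested, where 29.0% of all tested genes were higher and 24.8% lower. *Prss34* went from 0 counts in both Control libraries to 341 and 270 in Tumor, at least 72.4-fold higher. *Ctsg*, which encodes cathepsin G of neutrophils and mast cells, was at least 77.5-fold higher. *Gzmb*, which encodes granzyme B, rose by 3.79 ± 0.366, or by 4.46 without Control replicate 2, and *Srgn*, which encodes the proteoglycan serglycin that packs granules, rose by 2.01 ± 0.0259 on the log2 scale (SE). *Hpgds*, which encodes a prostaglandin D synthase, fell by 0.80 ± 0.140 on the same scale.

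The untested genes of that list were those that define mast cells of connective tissue and mucosa. *Cma1* had 7 and 5 counts in the Tumor libraries, *Tpsab1* 3 and 8, *Tpsb2* 0 and 4, *Mcpt4* 4 and 0, *Mcpt2* 6 and 7 and *Mcpt1* 3 and 1, while *Mcpt9* and *Tpsg1* had 0 in all libraries. *Mrgprb2*, the receptor gene of connective tissue mast cells, also had 0 counts in all 4 libraries, which allows up to 0.173 and 0.153 CPM in the Tumor libraries. These transcripts were thus at or near the floor in libraries with 346 and 360 counts of *Mcpt8*. When no filter was applied, *Cma1*, *Mcpt2* and *Tpsab1* were called higher (edgeR adjusted p 0.0255, 0.0169 and 0.0400). The summed level of the 4 markers listed for basophils (*Mcpt8* and *Prss34*, and *Cd200r3* and *Fcer1a*, which mast cells share) was 0 and 0.317 CPM in Control and 50.3 and 38.8 CPM in Tumor. Of the 6 markers listed for mast cells only 1 had enough counts to be tested, and it was called higher (29.0% over all tested genes). This was *Kit*, the receptor of stem cell factor, which progenitors also carry. It rose from 0.480 and 0.634 to 47.5 and 45.2 CPM and made up nearly all of the summed level of that list (48.3 and 46.1 CPM in Tumor).

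Of the 12 surface and transcription factor genes, 7 were higher and none was lower, with 3 not called and 2 not tested, beside 29.0% higher and 24.8% lower over all genes. *Gata1*, a GATA factor gene of mast cells, eosinophils and erythroid cells, had 0 counts in Control and 219 and 226 in Tumor, at least 60.6-fold higher. *Itga2*, an integrin gene, had 3 and 2 counts in Control, and both Tumor libraries stood at least 59.8-fold above the Control floor. *Itga2b*, another integrin gene, rose by 3.18 ± 0.149, *Cd69* by 0.87 ± 0.0784, *Cd63* by 0.75 ± 0.0358 and *Cebpa* by 0.34 ± 0.0262 on the log2 scale (SE). *Il3ra*, which encodes a subunit of the receptor for the basophil growth factor IL-3, was at 18.0 and 17.1 CPM in Control and 19.3 and 20.0 CPM in Tumor and did not pass the test (edgeR adjusted p 0.181). With scaling on the AM markers *Il3ra* was called higher (0.60 on the log2 scale, edgeR adjusted p 8.42e-06). Under that scaling 10 genes of this list were higher, where 91.6% of the calls over all genes were higher. *Il3* itself had 0 counts in all libraries.

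Histamine is packed by the transporter encoded by *Slc18a2*, inactivated by the enzyme encoded by *Hnmt* and sensed by 4 receptors. Of 7 genes, these and that of the histamine-degrading oxidase *Aoc1*, 3 were higher, 1 was lower and 3 were not tested, against the same shares over all genes. *Hrh2*, the gene of the H2 receptor, had 5 and 0 counts in Control and 90 and 102 in Tumor, a log2 fold change of 5.10 ± 0.446 (SE; edgeR adjusted p 1.03e-10). This value was 4.23 without Control replicate 2, and at least 27.3-fold without Control replicate 1, where the remaining library had 0 counts. *Hrh1*, the gene of the H1 receptor, had 30 and 29 counts in Control and 5 and 18 in Tumor, a log2 fold change of -1.46 ± 0.448 (edgeR adjusted p 0.00719). That call was lost without Control replicate 2 (-1.39) and without Tumor replicate 1 (-0.90), and the value was -2.54 without Tumor replicate 2. *Slc18a2* changed by 0.46 and *Hnmt* by 0.56 on the log2 scale, with edgeR adjusted p of 0.0446 and 0.0291, and the call of *Slc18a2* was lost without Control replicate 2 (0.27) and without Tumor replicate 1 (0.28), and that of *Hnmt* without Control replicate 1 (0.44), without Control replicate 2 (0.65) and without Tumor replicate 2 (0.47).

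Behind the immunoglobulin E receptor stands a kinase cascade that macrophages share. All 14 genes of this list had enough counts to be tested, of which 6 were higher and 4 lower, with a median log2 change of -0.01. Over all genes 53.8% were called, 29.0% higher and 24.8% lower. When libraries were scaled on the AM markers in place of all genes, 12 were higher and 1 was lower, where 91.6% of the calls over all genes were higher. With total counts as library sizes 6 were higher and 2 lower, where 62.6% of the calls over all genes were higher. Without Control replicate 1 the calls fell to 4 higher and 2 lower. The largest change was that of *Lat2*, an adaptor gene of mast cells and B cells, which rose from 1.55 and 1.52 to 4.85 and 4.99 CPM, by 1.68 ± 0.246 on the log2 scale (SE). *Lcp2*, the gene of the adaptor SLP-76, fell by 0.58 ± 0.0292 and *Gab2* by 0.34 ± 0.0320. The change of *Gab2* became 0.10 with scaling on the AM markers. Under that scaling the median over all tested genes was 0.46 in place of 0.02, and changes described here are relative to scaling over all genes.

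Genes through which IL-4 and IL-13 act were mostly measured in the libraries of both groups. Eosinophil markers (summed level of 2224 and 2204 CPM) and neutrophil markers (3773 and 3731 CPM) rose in the same Tumor libraries, and which cells these transcripts came from was not tested. Of the 13 receptor and signalling genes, 9 were higher, 1 was lower, 1 was not called and 2 were not tested, with a median log2 change of 0.47 over the tested genes, beside 29.0% higher and 24.8% lower over all genes. *Il4ra*, the receptor chain used by both cytokines, rose from 136 and 139 to 221 and 213 CPM, by 0.66 ± 0.0360 on the log2 scale (SE; edgeR adjusted p 3.61e-15). *Il13ra1*, its partner for IL-13, rose by 0.47 ± 0.0525, *Stat6* by 0.17 ± 0.0284 and *Irs2* by 0.55 ± 0.0356. The kinase genes *Jak2* and *Jak3* rose by 1.32 ± 0.0476 and 1.30 ± 0.106, and *Jak1* by 0.34 ± 0.0281. *Tyk2* changed by -0.18 ± 0.0414, which became 0.26 with scaling on the AM markers. *Il2rg*, the common gamma chain gene, was at 48.2 and 46.2 CPM in Control and 43.1 and 45.6 CPM in Tumor and was not called (edgeR adjusted p 0.283). The decoy receptor gene *Il13ra2* had 0 counts in all libraries.

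Transcripts known to be induced by IL-4 and IL-13 in macrophages moved in both directions. Of 18 genes, 7 were higher, 7 were lower, 3 were not called and 1 was not tested, with a median log2 change of -0.16, where 29.0% of all tested genes were higher and 24.8% lower. Scaling on the AM markers gave 10 higher and 1 lower, where 91.6% of the calls over all genes were higher. *Alox15*, a lipoxygenase gene that eosinophils also express, had 4 and 5 counts in Control and 12541 and 14084 in Tumor, a log2 fold change of 11.40 ± 0.0752 (SE). The chemokine genes *Ccl17* and *Ccl22*, whose products attract type 2 T cells, rose by 3.77 ± 0.249 and 2.18 ± 0.113, the lectin gene *Mgl2* by 3.41 ± 0.163 and *Retnla* by 2.07 ± 0.251. *Chil3*, *Mrc1* and *Egr2*, which AMs of Control mice transcribed at 5096 and 5240, 3447 and 3399, and 753 and 747 CPM, changed by -0.45 ± 0.0195, -0.47 ± 0.0158 and -0.53 ± 0.0234. With scaling on the AM markers *Chil3* and *Mrc1*, which are themselves among those markers, were at -0.01 and -0.03 and were not called.

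**Figure D4:**
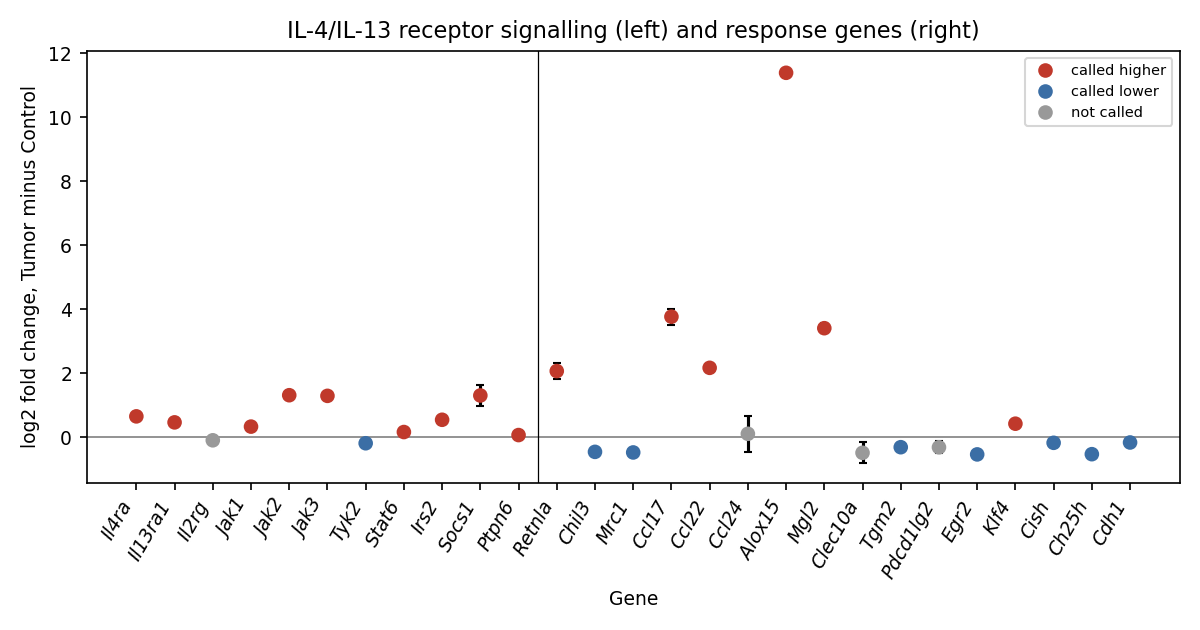
Log2 fold change (Tumor minus Control, edgeR) with SE bars for tested genes of IL-4 and IL-13 receptor signalling (left of the line) and of the macrophage response to these cytokines (right), coloured by call at an adjusted p of 0.05. Not every tested response gene is drawn. Receptor genes lie mostly above 0 (9 higher, 1 lower), response genes on both sides, with *Alox15* at 11.40.

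Cytokines and receptors upstream of the type 2 programme were partly below the depth of these libraries. Of 14 genes 4 were higher (29.0% over all tested genes), 1 was not called and 9 had too few counts to be tested, with *Il3*, *Il9*, *Il25* and *Il31* at 0 counts in all libraries, *Tslp* at 4 and 2 and *Il33* at 1 and 12 counts in Tumor. *Il1rl1*, the gene of the IL-33 receptor of mast cells, basophils and type 2 lymphocytes, rose from 1.01 and 0.697 to 27.0 and 27.3 CPM, by 4.96 ± 0.181 on the log2 scale (SE; edgeR adjusted p 3.38e-19). *Il5ra*, the IL-5 receptor gene of eosinophils and basophils, had 5 and 2 counts in Control and 337 and 401 in Tumor. *Il17rb*, the IL-25 receptor gene, rose by 2.99 ± 0.325, and *Crlf2*, the receptor gene for the alarmin TSLP, by 0.32 ± 0.0479. *Il7r*, which pairs with *Crlf2*, was at 6.78 and 7.03 CPM in Control and 7.28 and 7.29 CPM in Tumor (edgeR adjusted p 0.713).

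Markers of other cells moved in the same libraries, and their counts stand beside 29.0% higher and 24.8% lower over all tested genes. All 5 eosinophil markers were higher, with a summed level of 0.480 and 0.507 CPM in Control and 2224 and 2204 CPM in Tumor, and *Prg2*, the gene of the eosinophil major basic protein that basophils also make, had 1 count in each Control library and 28344 and 32089 in Tumor. All 10 neutrophil markers were higher (6.08 and 6.15 against 3773 and 3731 CPM), as were all 9 hepatocyte markers (0.640 and 1.08 against 673 and 674 CPM). Of 8 progenitor and erythroid markers 6 were higher and 2 were not tested (1.97 and 2.09 against 78.2 and 76.6 CPM, of which *Kit* and *Gata1* held 60.2 and 56.7 CPM in Tumor), with *Klf1* at 0 and 1 counts in Tumor. Of the 10 T cell and ILC2 markers, from cells that also make IL-4 and IL-13, 3 were higher and 1 was lower, 4 were not called and 2 were not tested (56.0 and 58.0 against 63.3 and 62.3 CPM). Most of that sum was *Rora* (48.8 and 52.1 against 44.6 and 42.5 CPM), and the other 9 summed to 7.20 and 5.83 CPM in Control and 18.7 and 19.8 CPM in Tumor. *Cd3g* rose by 3.16 ± 0.409 (SE) on the log2 scale and *Thy1* by 2.20 ± 0.363, or by 2.88 without Control replicate 1. *Cd3d* rose from 0.854 and 0.380 to 5.25 and 7.14 CPM, by 3.28 on the log2 scale, or by 4.00 without Control replicate 1, while *Cd3e* was at 0.8002 and 1.39 CPM in Control and 1.67 and 2.24 CPM in Tumor (edgeR adjusted p 0.0503, and called without Control replicate 2 at 1.27 or without Tumor replicate 1 at 1.05 on the log2 scale), and *Gata3*, the transcription factor gene of type 2 lymphocytes, had 5 and 2 counts in Control and 7 and 4 in Tumor. Of the 6 endothelial markers 2 were higher, 1 was lower, 2 were not called and 1 was not tested. By its markers, the CD45+ CD11b- CD11c+ SiglecF+ gate given for the stained AMs would leave out these cell types, and basophils and mast cells as well. The sequencing methods do not repeat this gate and give no purity of the cells. The part of these cell types in the levels of the 9 genes was not tested.

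**Figure D5:**
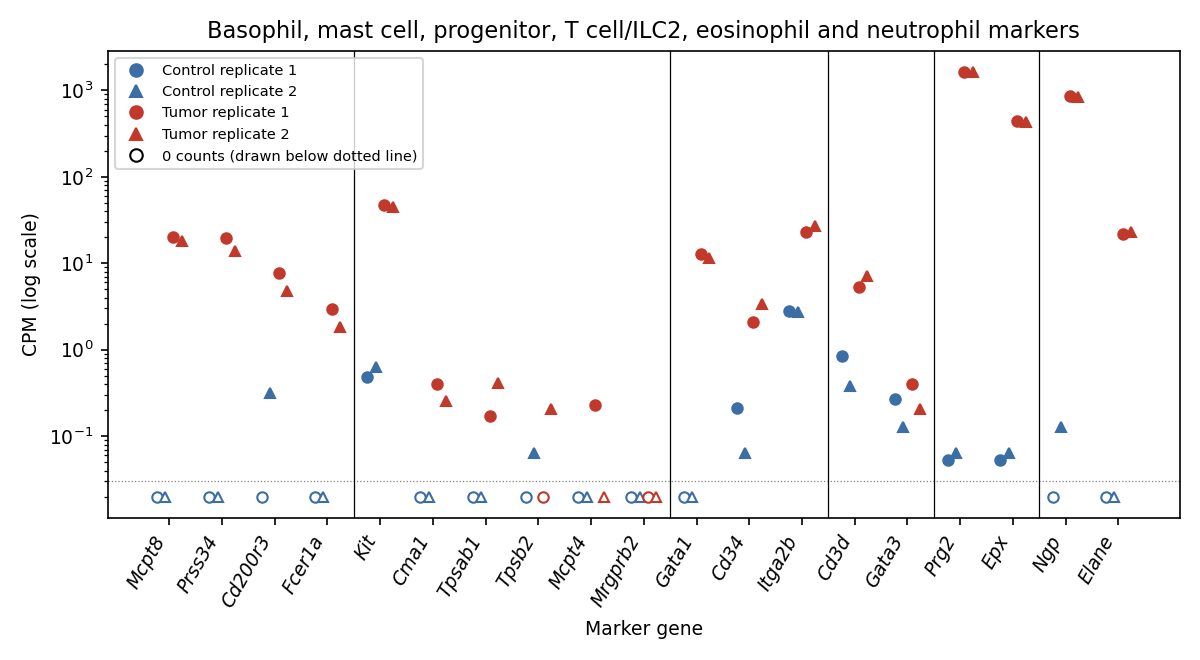
CPM (log scale) of selected markers in the 4 libraries, separated by vertical lines into basophil, mast cell, progenitor, T cell and ILC2, eosinophil and neutrophil genes, with open symbols for 0 counts. The basophil markers reach between 1.83 and 20.0 CPM in Tumor, and all mast cell markers other than *Kit* stay at or under 0.408 CPM.

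Over the 4 libraries, the 5 genes whose pattern lay nearest to the mean pattern of the 9 (Euclidean distance of log2 CPM centred per gene, from 0.195 to 0.229) included *Slc38a3*, *Ripor2*, *Hp* and *Apoa5*. The 5 genes had between 0 and 78 counts in the Control libraries and between 85 and 3270 in the Tumor libraries, and all 5 stood higher in both Tumor libraries. *Hp* encodes haptoglobin and *Apoa5* an apolipoprotein, both plasma proteins made by liver. Of the 9 genes, *Ms4a2* lay nearest to their mean pattern (0.205) and *Hdc* farthest from it (2.56). With 4 libraries in 2 groups this distance mostly ranks genes by the size of the difference between groups.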

How the data were processed

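RNA of purified AMs was sequenced in 4 libraries (2 Control, 2 Tumor). The deposited values are raw counts per gene, which the authors made with HISAT2 (2.0.5 in the submitters' processing notes) and featureCounts. DESeq2 is also named there, without a role or version. The genome build, annotation, strand setting and handling of reads with several matches are not given in the sources used here. The deposited coordinates of all 9 genes equal those of GENCODE M21 (GRCm38), as do those of 98.3% of the 54409 gene identifiers found in that annotation.

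Counts were tested with edgeR 4.0.16 (R 4.3.3), using TMM scaling, the filterByExpr filter with a minimum count of 10, a quasi-likelihood fit of Tumor against Control and Benjamini-Hochberg adjustment over all 14256 genes tested, with a threshold of 0.05. The fit left 2 residual degrees of freedom. The code was tested on simulated data. With 2 libraries against 2, an exact two-sided permutation test of a single gene cannot go below 0.333 and was not used. Alternatives included DESeq2 1.42.0, limma 3.58.1, other scalings and filters, a replicate block, and leaving out each library, where the lone sample of a group is assumed to vary like the other group. The 9 genes and all lists were chosen with earlier results of these data known. All 9 genes and any gene of the lists could be named, and so could the 5 genes of most similar pattern. Some genes of the lists and of the similar patterns are not reported here by name.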

Additional observations from a re-analysis of the deposited data

How the results depend on the processing

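The 9 genes were called higher under every alternative that tested them. A minimum of 10 counts in every library left 1 of them, *Hdc*, to test, and the number of calls among the 9 was then 1. The same filter left 2 calls among the histamine genes, 2 among the granule and mediator genes, 4 among the surface and transcription factor genes and 2 among the type 2 cytokines and receptors, since fewer genes were tested. Without a filter the granule and mediator genes had 8 calls in place of 5, the added ones being *Cma1*, *Mcpt2* and *Tpsab1*. Asking in addition for an absolute log2 fold change of at least 1 left 2268 calls over all genes, 2 among the histamine genes, 4 among the surface and transcription factor genes, 1 in immunoglobulin E receptor signalling, 3 in IL-4 and IL-13 receptor signalling and 6 among the response genes. The histamine genes had 2 calls with DESeq2 and 2 at an adjusted p of 0.01, in place of 4. In both settings these were *Hrh2* and *Hrh1*, so the calls of *Slc18a2* and *Hnmt* were lost. Leaving out 1 library leaves a group with a single sample, which is assumed to vary like the other group. It gave 1 (without Control replicate 2) to 3 calls among the histamine genes, 6 (without Control replicate 1) to 9 in immunoglobulin E receptor signalling and 6515 to 7470 over all genes.

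Scaling on the AM markers raised the median of all tested genes from 0.02 to 0.46 and so turned the direction of genes with small falls, among them *Ltc4s* (0.29), *Gab2* (0.10), *Il2rg* (0.35), *Tyk2* (0.26), *Rora* (0.23) and *Vwf* (0.0027) on the log2 scale. *Cdh5*, which was not called, ranged from -0.15 (without Control replicate 2) to 1.06 (without Control replicate 1) when 1 library was left out. Samples with the same replicate number did not deviate together (correlation of -0.00278 between the groups' deviations), and neither labels nor methods say what a shared number stands for, so the block is given here only. With the replicate number as a block, 7446 genes were called in place of 7671, and 9 of the 9 genes. Depth limits the genes at the floor, for which the size of the change is known only as a bound.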
